A study of Mus musculus with 2 samples.

Results

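The 32 genes described here encode the machinery of mitosis, and they were followed in explanted mouse ureters cultured with or without NOGGIN. They were taken as a named list, and their probes were found by matching the accession of each array probe to a RefSeq gene symbol. All 32 genes had a probe, 46 probes in all of 39408 on the array, and 31 of them were measured above background among 21337 genes tested. Both groups were ureters of wildtype NMRI mouse embryos of mixed sex, dissected at E12.5 and kept 18 h on transwell membranes. The NOGGIN group had 10 µg/ml of NOGGIN in the medium, an extracellular inhibitor that sequesters bone morphogenetic proteins (BMPs), and the control group had none. The data are 2 Agilent 2-colour microarrays with exchanged dyes, each with 1 control and 1 NOGGIN sample of ureter cultures. Precision is limited by there being only these arrays. The labels name neither the number of embryos per culture nor separate litters for the replicates, so p-values measure the spread between these samples, which may be technical.

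Mitosis is run by a wave of genes whose transcripts peak late in the cell cycle. Cyclin B with CDK1 drives entry into mitosis, kinesins and their partners build the spindle, and the kinetochore couples chromosomes to it. The spindle checkpoint then holds back the anaphase-promoting complex until every chromosome is attached. Because the transcripts are low outside this phase, their summed level in a tissue is widely read as a sign of how many cells are dividing. In RNA from whole ureters, fewer cells of a type and less RNA per cell cannot be told apart.

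Ratios are log2 values of the NOGGIN-labelled over the control-labelled channel of an array, following the dyes in the labels, with mean ± SD over the arrays (n = 2). This direction has to be read with care. The authors' deposited value table has the opposite sign for all 31 measured mitosis genes in both of its columns. In the scanner files the BMP targets Id1 and Smad9, which an inhibitor of BMPs would lower, were higher in the NOGGIN-labelled channel, by 1.98 ± 0.62 and 2.37 ± 0.20, while the authors' deposited table lists signed folds of -2.82 and -5.67 for Id1 and of -5.26 and -6.74 for Smad9. "Higher" and "lower" therefore refer to the channel labelled NOGGIN. If the labels of the channels are exchanged, every direction below turns, with sizes and p-values as they are.

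All 31 measured mitosis genes were higher in the NOGGIN-labelled channel on both arrays, each by a modest amount. Over all genes tested, 33.6% were higher on both arrays and 33.1% lower on both. In all 31 both NOGGIN-labelled intensities also lay above both control intensities, which 25.5% of all genes showed. The median ratio of the mitosis genes was 0.36, or 1.28-fold, with 0.33 on replicate 1 and 0.39 on replicate 2, while the median of all genes was 0.00083. Single genes ranged from 0.12 for Cdca8 to 0.55 for Nusap1. Of the 31 genes, 13 rose past an adjusted p of 0.05 (limma, Benjamini-Hochberg over all genes) and 0 fell, while of all genes 7.97% passed, 3.95% as higher and 4.03% as lower. At an unadjusted p under 0.05 the mitosis genes numbered 28 higher and 0 lower, and all 21337 genes 2612 higher and 2341 lower. None reached 1.5-fold on both arrays (0 of 31), which 1.35% of all genes did as higher and 1.55% as lower. For 30 of the 31 genes the mean ratio was larger than the SD between the arrays, the exception being Cdk1.

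**Figure D1:**
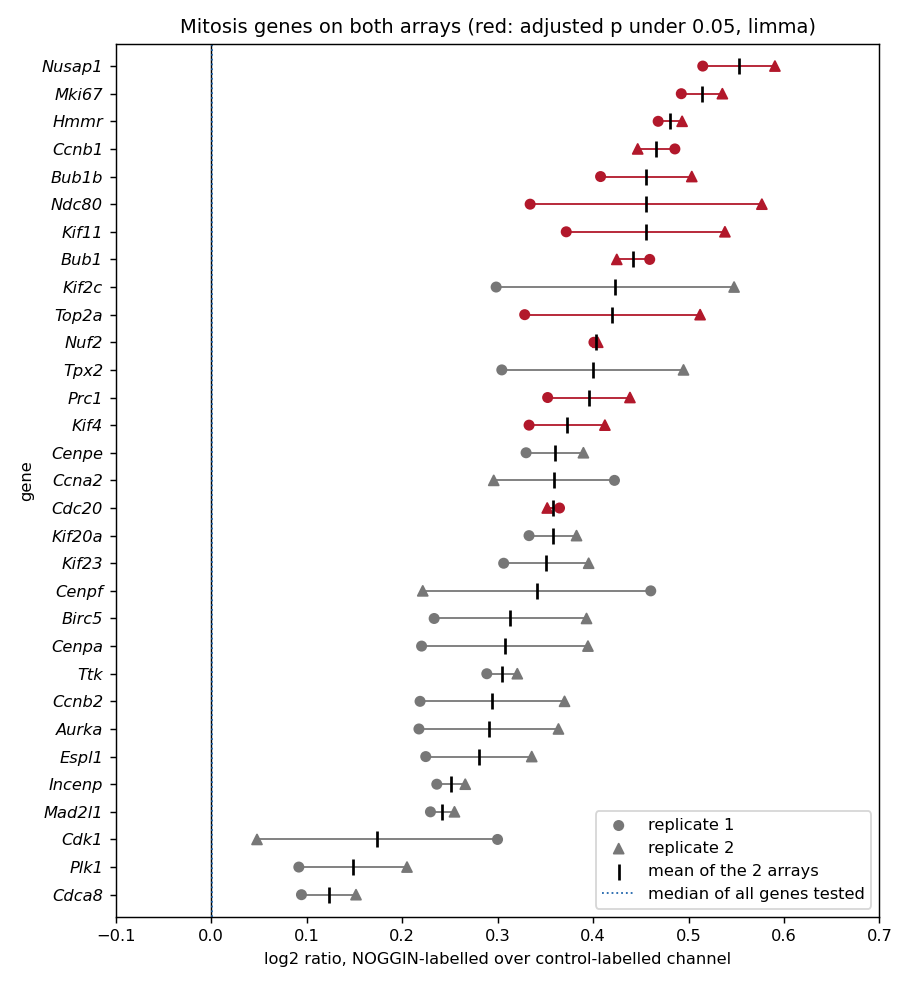
Log2 ratio (x axis) of the 31 measured mitosis genes (y axis) on each array, circles for replicate 1 and triangles for replicate 2, with the mean as a tick, genes with an adjusted p under 0.05 in red and the median of all genes as a dotted line. Every symbol lies to the right of 0, and the means run from 0.12 for Cdca8 to 0.55 for Nusap1.

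The promoters of these genes share sequence elements that the choice of the list did not use. CCAAT boxes, the binding site of the factor NF-Y, and the cell cycle genes homology region (CHR), the site of the MuvB complexes that switch mitotic genes on and off, are classic features of this family. RefSeq promoters of build GRCm38.p6, from 250 bases before to 50 after the start, were found for 27 of the 32 genes. CCAAT, on either strand, was in 21 of the 27 (77.8%) and in 37.4% of the 32851 promoters of the table. Of the 27 promoters 14 held more than 1 CCAAT box (51.9%, against 11.7% of the table). For the CHR, the hexamer TTTGAA was searched on both strands, with its variant form TTTAAA, which reads the same on both. At least 1 of these hexamers was in 23 of the 27 promoters (85.2%), against 27.6% of the table. The first form was in 74.1% of the 27 and the variant in 33.3%, against 17.9% and 13.2% of the table. Among the first promoters of 12485 genes tested on the arrays, CCAAT was in 38.2% and a CHR-type hexamer in 19.9%. A CCAAT box and a hexamer stood together in 20 of the 27 promoters (74.1%), and in 8.06% of those of the genes tested. Other cell cycle lists held these letters often as well. CCAAT was in 67.7% of 31 promoters of other kinetochore genes and in 59.4% of 32 of S phase genes, and a CHR-type hexamer in 69.7% of 33 of other spindle and cytokinesis genes, in 48.4% of the kinetochore promoters and in 8 of the 32 S phase promoters. Matches were counted also where they share a base, as in Cdca8, and a match is a match of letters only.

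These elements were found both in genes that passed and in genes that did not, and the difference was not tested. CCAAT was in 10 of their 13 promoters and in 11 of the 14 promoters of the other mitosis genes, and a CHR-type hexamer was in 10 and 13. The stretches below show the 150 bases before the start for the 6 genes with the smallest adjusted p among those with a promoter entry, read 5′ to 3′ along the gene. They are shown because they are the promoters of the clearest responders. Capitals mark the CCAAT boxes, written ATTGG where they lie on the opposite strand, and the CHR-type hexamers in either form.
Nusap1 (chr2:119618148-119618297, plus strand): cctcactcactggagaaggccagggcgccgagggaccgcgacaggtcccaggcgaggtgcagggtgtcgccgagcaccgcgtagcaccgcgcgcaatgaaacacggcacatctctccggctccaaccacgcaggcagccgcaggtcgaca
Mki67 (chr7:135716380-135716529, minus strand): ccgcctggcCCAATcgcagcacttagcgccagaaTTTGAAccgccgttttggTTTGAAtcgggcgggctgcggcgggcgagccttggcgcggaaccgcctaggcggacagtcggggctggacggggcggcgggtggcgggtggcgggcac
Hmmr (chr11:40733438-40733587, minus strand): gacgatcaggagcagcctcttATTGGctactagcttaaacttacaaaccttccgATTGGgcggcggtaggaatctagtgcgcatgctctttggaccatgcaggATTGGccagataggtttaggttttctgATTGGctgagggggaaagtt
Ccnb1 (chr13:100786487-100786636, minus strand): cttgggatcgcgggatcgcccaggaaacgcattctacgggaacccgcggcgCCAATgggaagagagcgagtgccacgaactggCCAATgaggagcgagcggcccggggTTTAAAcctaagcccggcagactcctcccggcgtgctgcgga
Bub1 (chr2:127831860-127832009, minus strand): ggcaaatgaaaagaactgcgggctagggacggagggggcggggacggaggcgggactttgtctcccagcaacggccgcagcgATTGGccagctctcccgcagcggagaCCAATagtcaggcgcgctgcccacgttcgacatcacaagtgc
Bub1b (chr2:118598061-118598210, plus strand): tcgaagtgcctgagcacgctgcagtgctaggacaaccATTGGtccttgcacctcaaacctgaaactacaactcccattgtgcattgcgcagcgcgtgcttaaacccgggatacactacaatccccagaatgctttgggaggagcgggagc
Ccnb1 showed the textbook layout, with CCAAT boxes at -99 and -67 and TTTAAA at -42, counted in bases from the start to the first base of the motif. Mki67 had TTTGAA at -116 and -98, downstream of a CCAAT box at -141. The Hmmr stretch held 4 CCAAT boxes on the opposite strand, and its TTTGAA lay past the start, at 9. Bub1 held 2 CCAAT boxes and Bub1b 1, with TTTGAA past the start of Bub1b, at 41. In the Nusap1 stretch these letters were not found.

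The genes around the chromosome and spindle surface had the highest median ratio of the role groups, 0.50. Of these genes 4 of 4 rose, while over all genes 3.95% passed as higher. The role groups hold 2 to 6 genes each, and differences between them were not tested. Single genes of other groups had similar ratios, such as Ccnb1 with 0.47. Mki67, which coats mitotic chromosomes and is the usual marker of dividing cells, had normalised log2 intensities of 14.97 and 14.90 in the control channels of replicates 1 and 2, and 15.47 and 15.43 in the NOGGIN-labelled channels. Both NOGGIN-labelled values lay above both controls, as in all 31 measured mitosis genes and in 25.5% of all genes. The ratio was 0.51 ± 0.030, a 1.43-fold difference (adjusted p = 0.0209, limma), and its second probe gave 0.50. Nusap1, a microtubule-binding protein of the spindle, was at 13.38 and 13.43 in the controls against 13.90 and 14.02. That is a ratio of 0.55 ± 0.053 (1.47-fold, adjusted p = 0.0186, limma), the largest among the mitosis genes, and 2.12% of all genes had a higher mean. Hmmr, a hyaluronan receptor that also acts at spindle poles, was at 12.30 and 12.31 against 12.77 and 12.80, without overlap (0.48 ± 0.018). Top2a, the topoisomerase that untangles sister chromatids, stood at 13.38 and 13.25 against 13.71 and 13.76. Its ratio, 0.42 ± 0.13, was larger on replicate 2 and passed narrowly (adjusted p = 0.0470, limma).

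Among cyclins and their kinase, only Ccnb1 passed. Cyclin B1, its product, activates CDK1 at mitotic entry. Its log2 intensity was 14.19 and 14.17 in the controls and 14.67 and 14.62 in the NOGGIN-labelled channels. The groups did not overlap, as in all 31 measured mitosis genes and in 25.5% of all genes. The ratio of Ccnb1 was 0.47 ± 0.028 (adjusted p = 0.0265, limma), and its 3 probes lay between 0.42 and 0.47. Ccna2, the cyclin of S phase and early mitosis, had a ratio of 0.36 ± 0.089 and Ccnb2, the other mitotic B cyclin measured, one of 0.29 ± 0.11, and neither passed. Cdk1 itself had 11.68 and 11.68 in the controls against 11.98 and 11.73. Its ratio thus came mainly from replicate 1 (0.30, against 0.048 on replicate 2), did not pass (adjusted p = 0.333, limma), and was 0.0036 at a second, dimmer probe.

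Spindle checkpoint genes were split between a pair that passed and a pair that did not. Bub1, the checkpoint kinase at kinetochores, was at 12.92 and 12.97 in the controls and at 13.38 and 13.40 in the NOGGIN-labelled channels. Bub1b, whose product BubR1 is part of the inhibitor of the anaphase-promoting complex, was at 12.83 and 12.70 against 13.24 and 13.20. Neither gene overlapped between the groups, which held for all 31 measured mitosis genes and was so in 25.5% of all genes. The ratios of Bub1 and Bub1b were 0.44 ± 0.024 and 0.46 ± 0.068 (adjusted p = 0.0298 and 0.0300, limma). Ttk, the kinase that starts the checkpoint, had 0.30 ± 0.023 and Mad2l1, which binds Cdc20 when attachment is missing, 0.24 ± 0.018. These did not pass, although the arrays lay close together for each.

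Cdc20, the activator of the anaphase-promoting complex and the target of the checkpoint, had 14.87 and 14.86 in the controls and 15.23 and 15.21 in the NOGGIN-labelled channels. The 4 values formed pairs without overlap, as in all 31 measured mitosis genes and in 25.5% of all genes. The ratio of 0.36 ± 0.0091 was just past the threshold (adjusted p = 0.0493, limma). Espl1, the separase that cuts cohesin at anaphase, had 0.28 ± 0.079 and did not pass.

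At the centromere and kinetochore, Ndc80 and Nuf2 passed. They are partners in the complex that grips microtubule ends. Nuf2 was at 11.68 and 11.66 in the controls and 12.08 and 12.07 in the NOGGIN-labelled channels. Its ratio was 0.40 ± 0.0028 (adjusted p = 0.0375, limma), while a second, dimmer probe gave 0.19. Ndc80 was at 11.55 and 11.56 against 11.89 and 12.13, with a larger difference on replicate 2 (0.46 ± 0.17, adjusted p = 0.0471, limma). Cenpe, a kinetochore motor, had 0.36 ± 0.042 (adjusted p = 0.0507, limma), on the other side of the threshold by little. Cenpa, the histone H3 variant of centromeres, had 0.31 ± 0.12 and Cenpf, a large protein of the outer kinetochore, 0.34 ± 0.17. Neither passed.

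Of the spindle motors and the midzone, Kif11, Kif4 and Prc1 rose. Kif11, the motor that pushes spindle poles apart, was at 12.00 and 11.90 in the controls and 12.37 and 12.44 in the NOGGIN-labelled channels, a ratio of 0.46 ± 0.12 (adjusted p = 0.0370, limma). Prc1, which bundles the antiparallel microtubules of the midzone, was at 14.37 and 14.29 against 14.72 and 14.73 (0.40 ± 0.061). Kif4, a chromosome-bound kinesin that works with Prc1, was at 11.80 and 11.56 against 12.13 and 11.97 (0.37 ± 0.056). In all 3 genes both NOGGIN-labelled values were above both controls, as in all 31 measured mitosis genes and in 25.5% of all genes. The cytokinesis kinesins Kif20a and Kif23 had 0.36 ± 0.035 and 0.35 ± 0.063, and Kif2c, which takes microtubule ends apart, 0.42 ± 0.18 with its other probe at 0.42. They did not pass.

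In the polo and Aurora A arm and in the chromosomal passenger complex no gene passed, and the medians were 0.29 and 0.25. Plk1, the polo kinase, had 0.15 ± 0.080 and Aurka, the spindle pole kinase, 0.29 ± 0.10. Tpx2, which activates Aurora A on the spindle, had 0.40 ± 0.13, and 0.56 at its other probe. None of these 3 passed in limma, while 2 of them had an unadjusted p under 0.05. In the chromosomal passenger complex, which corrects wrong attachments, Birc5 (survivin) had 0.31 ± 0.11, Incenp 0.25 ± 0.021 and Cdca8 (borealin) 0.12 ± 0.040, and none of the 3 passed, 2 having an unadjusted p under 0.05. The 95% interval of Cdca8 reached from -0.063 to 0.31, which takes in ratios like those of other mitosis genes. Aurkb, the kinase of this complex, was not well above background in either channel of either array, so no ratio is given. Its value of 0.25 for the share of bright spots, on replicate 2 in the control channel, was the highest of its 4 channels.

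Several probes of 1 gene mostly gave similar ratios. Of 10 mitosis genes with more than 1 usable probe, 7 had probe means within 0.1 of each other. Of the 44 usable probes, 44 had a mean above 0 and 43 were above 0 on both arrays, the exception being the dim probe of Cdk1. In 25 of the 31 genes the ratio was larger on replicate 2 than on replicate 1. The dyes were exchanged between the arrays, so a dye effect and a difference between the replicates cannot be told apart. Replicate 2 minus replicate 1, divided by 2, had a median of 0.038 in the mitosis genes and -0.0095 in all genes. In each of the 31 its size was below the mean ratio, which is fixed where both arrays are above 0.

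**Figure D2:**
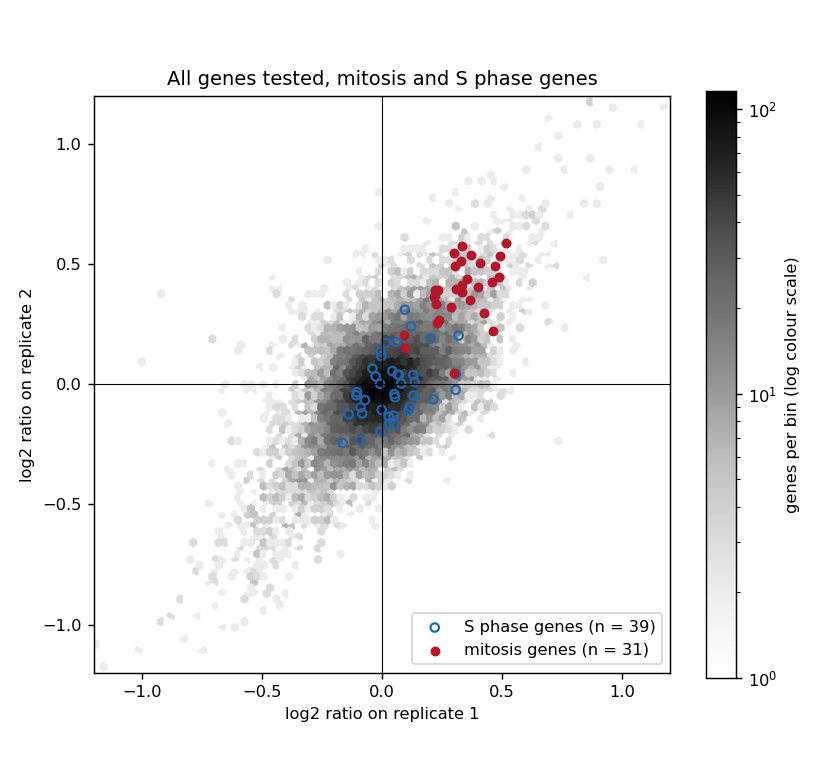
Log2 ratio on replicate 1 (x axis) against replicate 2 (y axis) for all genes tested (grey bins, log colour scale), the 31 mitosis genes (red) and 39 S phase genes (blue rings), with 235 genes beyond 1.2 on an axis not shown. The mitosis genes fill the upper right quadrant, and the S phase genes lie around 0.

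Other genes of the mitotic apparatus were read from lists that do not contain the 32 genes. Of 39 measured spindle, midzone and cytokinesis genes, 13 rose and 0 fell (31 and 0 at an unadjusted p under 0.05, limma), with a median of 0.30. Aspm, a spindle pole protein, had 0.68 ± 0.13, Depdc1a 0.54 ± 0.034 and the kinesin Kif15 0.52 ± 0.074. Of 36 other kinetochore and centromere genes 6 rose and 0 fell (18 and 0 unadjusted), with a median of 0.21. Sgo2a, a shugoshin that guards centromeric cohesion, had 0.54 ± 0.036 and Knl1, the kinetochore scaffold, 0.50 ± 0.14. Of 19 condensin and cohesin genes 3 rose and 0 fell (10 and 0 unadjusted), with a median of 0.19. These 3 belong to condensin, which compacts chromosomes, with Smc2 at 0.55 ± 0.089, Ncapg at 0.45 ± 0.031 and Smc4 at 0.40 ± 0.042.

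The S phase and anaphase-promoting complex lists had medians near that of all genes, and lists of other steps held single genes with large ratios. Of 39 measured S phase and DNA replication genes 0 passed in either direction in limma (2 higher and 1 lower at an unadjusted p under 0.05), with a median of 0.011 that ran from 0.048 on replicate 1 to -0.033 on replicate 2. The count was 0 under each of the 15 other ways of processing as well. The range of single S phase genes, -0.20 to 0.26, reached above the smallest mitosis genes. Of 18 genes of the anaphase-promoting complex and its partners 0 passed (2 higher and 1 lower unadjusted, limma), with a median of 0.013. Over the other ways of processing that median lay between -0.055 and 0.017, and that of the S phase genes between -0.066 and 0.016, so neither has a settled sign. The highest ratio of the 18 was that of the ubiquitin-conjugating enzyme Ube2c, at 0.23 with an adjusted p of 0.137. Among 16 genes listed for mitotic entry 1 rose, Gas2l3 (0.69 ± 0.051, and 0.29 for another of its probes). Its product links actin and microtubules in cytokinesis, which comes after entry, and no other gene of this list was called. The list's median was 0.072 (3 higher and 1 lower unadjusted, limma). Of 12 D cyclins and CDK inhibitors Cdkn2c rose (0.52 ± 0.11) and Cdkn1a, the p21 gene, fell (-0.86 ± 0.19), while another probe of Cdkn1a had a ratio of -0.0042. The differences between these lists and the mitosis genes were not tested.

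**Figure D3:**
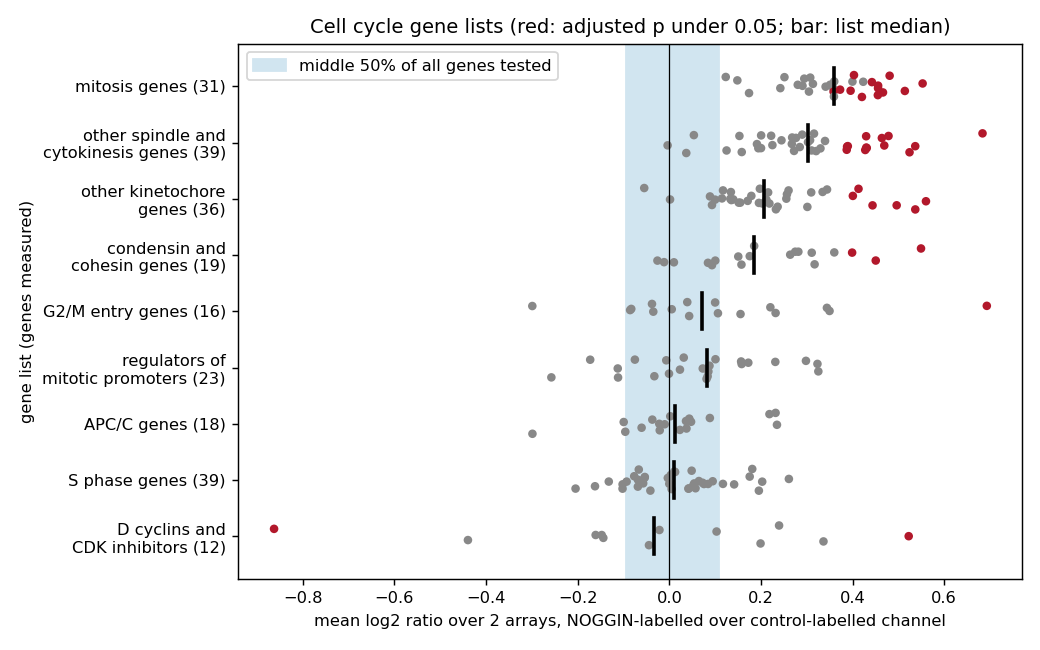
Mean log2 ratio over the 2 arrays (x axis) for each measured gene of 9 cell cycle lists (y axis, with the number of genes), genes with an adjusted p under 0.05 in red, list medians as bars and the middle 50% of all genes as a band from -0.095 to 0.11. The 4 lists of mitotic structures have medians between 0.19 and 0.36, to the right of the band, and the S phase and APC/C (anaphase-promoting complex) lists have medians of 0.011 and 0.013.

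The regulators of mitotic promoters, transcription factors and their partners, did not pass. Of 23 such genes 0 were called in limma (4 higher and 1 lower at an unadjusted p under 0.05), with a median of 0.081. The regulators named next were chosen whatever their value, and none of them is among those with an unadjusted p under 0.05. Foxm1, which activates mitotic genes together with MuvB, was at 11.95 and 11.92 in the controls and 12.05 and 11.98 in the NOGGIN-labelled channels, a ratio of 0.081 ± 0.026 (adjusted p = 0.574, limma). Mybl2, the B-Myb subunit, had -0.00070 ± 0.21, with opposite signs on the arrays, and Lin9, a MuvB core subunit, 0.088 ± 0.086. Nfya and Nfyb, subunits of the CCAAT-binding factor, had -0.11 ± 0.087 and 0.084 ± 0.12. E2f4, a repressor partner, had -0.17 ± 0.47, also with opposite signs on the arrays. Other probes gave 0.10 for Foxm1, 0.13 for Mybl2, and 0.056 and -0.15 for Nfyb. A p that misses the threshold does not show that a gene was unchanged.

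Marker lists were read beside the mitosis genes, and over all genes 3.95% passed as higher and 4.03% as lower. Smooth muscle markers fell, 5 of 8, with a summed log2 level of 18.96 and 18.93 in the controls and 17.91 and 17.97 in the NOGGIN-labelled channels. Urothelial markers had 1 of 13 higher, Upk2 (5 higher and 0 lower unadjusted, limma), and summed to 17.65 and 17.78 against 17.87 and 17.86. Mesenchymal markers went both ways, 2 higher and 2 lower of 10, with sums of 19.71 and 19.78 against 19.40 and 19.55. The sums are of linear intensities, so the brightest genes of a list weigh most in them. All markers of these 3 lists were above background. Endothelial markers had 0 of 8 higher and 1 lower (2 higher and 1 lower unadjusted, limma). Macrophage markers had 0 of 7 in either direction (1 higher and 2 lower unadjusted, limma). Neural crest markers had 0 of 7 (1 and 1 unadjusted). Erythroid markers had 1 of 7 higher, Epor (1 higher and 0 lower unadjusted, limma), but only 2 of the 7 had a ratio above 0. Over the other ways of processing, the erythroid count was 0 or 1. The macrophage marker Fcgr1 was not above background. Their part in the values of the mitosis genes was not tested.

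How many mitosis genes passed depended on the processing. Of the 13 genes, 5 had an adjusted p from 0.04 to 0.05 and 6 others one from 0.05 to 0.06. The count ran from 0, with arrays centred on their median and no intensity-dependent loess step, to 20 with a separate-channel model. The direction did not depend on it: 465 of 465 values of single genes over 15 other settings were above 0. The deposited table entered there with its sign turned. Not all of these values are separate checks. In the 3 settings that changed only the test, and in those that changed only which probes were kept, they repeat those above. Without loess, 27 of the 31 genes were above 0 on both arrays. Mki67, Nusap1, Hmmr and Ccnb1 passed in 14 of the 15 settings, the exception being the one without loess.

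**Figure D4:**
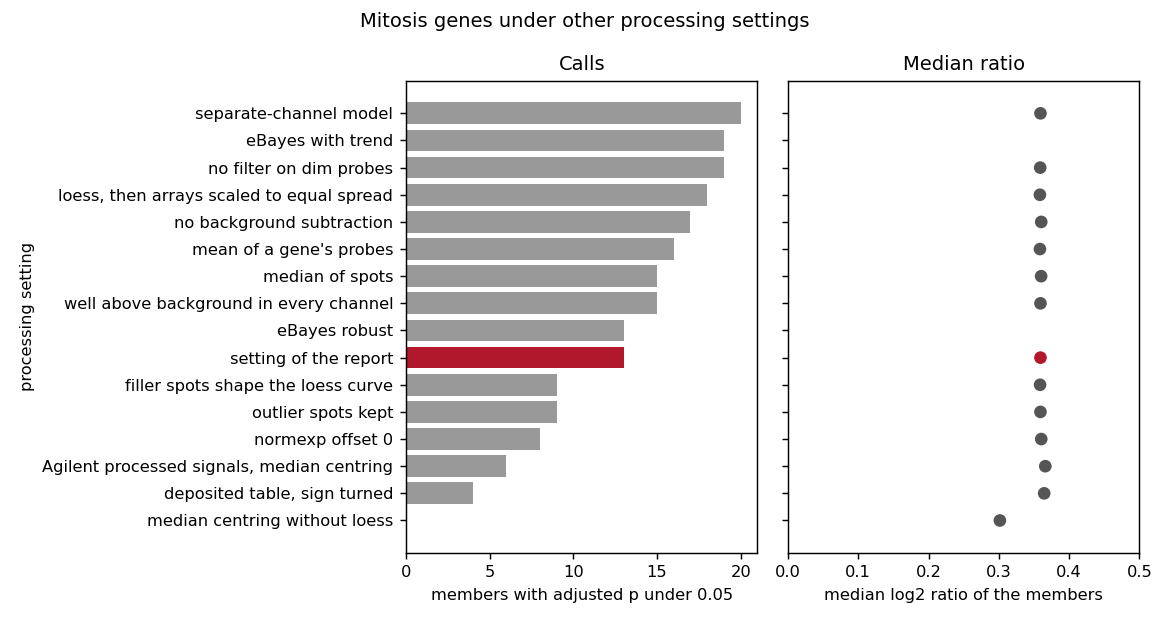
Number of the mitosis genes with an adjusted p under 0.05 (left, bars from 0) and their median log2 ratio (right, points) for each processing setting (y axis), the setting of the report in red. Calls run from 0 to 20, while the median stays between 0.30 and 0.37; the 2 settings that change only the moderation have no median of their own.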

How the data were processed

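Per the file headers and the submitters' processing notes, the deposited files are output of Agilent Feature Extraction 10.7.3.1, with linear intensities of each spot and its background and with quality flags. Per the labels' protocols, amplified RNA carried 1 of 2 Alexa Fluor dyes. The deposited log10 ratio of red over green matched the processed signals and was not used. The authors' deposited value table holds signed fold changes with a column median of 1. Over the 10668 probes brighter than the median, they followed the same array with r = -0.980 and -0.985. How it was normalised is not stated, and which sign is right is unknown.

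Mean signals were corrected with normexp (offset 50) and loess within each array, in which control, outlier and filler spots had weight 0. Outlier spots (3.69% on each array) were left out and spots of a probe averaged. Probes stayed in when over 0.5 of their spots were well above background in a condition's channel of each array, for at least 1 condition, and the brightest kept probe stood for a gene. Between 67.3% and 74.3% of spots were well above background and 0 were saturated. Of 39408 probes 28313 had a symbol, from RefSeq accessions of GRCm38.p6. Channel intensities are after loess and Aquantile scaling. Log2 ratios were tested against 0 by two-sided limma (version 3.58.1, R 4.3.3) with Benjamini-Hochberg adjustment over 21337 genes, where 1 residual degree of freedom was moderated with 4.12 prior ones. Of these steps, loess, the averaging of spots and limma were run on simulated data. Background correction, the removal of outlier spots and the choice of probes were not part of that. The array is the pairing, since each carried both conditions.

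The members and lists were chosen with earlier results of these data known. Named are all 32 members, up to 3 called genes of each other list by size, 6 regulators, Id1 and Smad9. A few of these are not reported here. Of the marker lists only counts and summed levels are given, besides 3 names. Promoters were those of the 6 called members with the smallest adjusted p. Alternatives were other background corrections, normalisations, filters, spot and probe summaries, limma forms, thresholds, the deposited table and each array alone.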

Additional observations from a re-analysis of the deposited data

How the results depend on the processing

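The direction of the 31 mitosis genes was the same in all 15 refits, and the median ratio stayed within the spread between the arrays in each refit that gave one except median centring without loess, where it was 0.301. It was 0.330 to 0.395 when 1 array was left out, values with no test because 0 residual degrees of freedom remain. The number of mitosis genes that passed in limma was 8 with a normexp offset of 0, 6 with Agilent's processed signals, 4 with the deposited table's values (sign turned), 20 with the separate-channel model and 0 with median centring (15 at an unadjusted p under 0.05). It was 0 at an adjusted p of 0.01, 23 at 0.1 and 0 at 1.5-fold on both arrays. Over all genes, the count was 0 with median centring (3572 unadjusted), 378 at 0.01, 2691 at 0.1 and 618 at 1.5-fold on both arrays. Filler spots with weight in the loess step, an alternative chosen after seeing the data, gave 9 mitosis genes and 1481 genes. No paired analysis was possible because beyond the ratio within each array, which is the pairing and was tested above, no further block can be added with 2 arrays. Why the calls moved was not tested. Among the mitosis genes the lowest ratio that passed was 0.36 and the highest that did not was 0.42.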
